A study of Homo sapiens with 13 samples.

Results

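Expression of 52 interferon-stimulated genes was examined in 13 RNA-seq libraries of A549 cells, which derive from a human lung adenocarcinoma. The genes were chosen by name with earlier results of these data known, so the choice gives no independent support. The row of RIG-I is written DDX58. All 52 had a row in each of the 3 tables, which hold 39735, 59653 and 17976 genes. The study asked what a gene unit on chromosome 17, made of PRR11, SKA2, miR-301a and miR-454, does in lung cancer cells. Polyadenylated RNA was sequenced from 1 library per group in 4 sets. The CRISPRi set held a stable line in which the shared PRR11 and SKA2 promoter was repressed (CRISPRi_PRR11+SKA2 promoter-sgRNA#1) and a line with a mock guide (CRISPRi_Mock sgRNA). The lentiviral gene set held stable pCDH-CMV lines labelled LV-PRR11, LV-SKA2 and LV-P+S, the last for both genes, and the control LV-vector-PS. The lentiviral microRNA set held stable lines labelled LV-miR301a, LV-miR454 and LV-3+4, the last for both microRNAs, and the control LV-vector-34. The CRISPRd set held lines labelled as knockouts of the microRNA precursors (CRISPRd_miR301a-#2 and CRISPRd_miR454-#1) and CRISPRd_Control. All lines were A549 grown in DMEM/F12 with serum, and no group was labelled as treated with interferon. The sources used here do not give whether a line was 1 clone or a pool.

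Interferons are secreted alarm proteins. Type I and type III interferons bind receptors that signal through the kinases JAK1 and TYK2, and a complex that holds STAT2 and IRF9 then binds a DNA element, the interferon-stimulated response element, in front of its target genes. The products sense viral RNA, degrade or shield RNA, block membrane fusion and assembly, or modify other proteins, and several of them also form the machinery that raises the response. Epithelial cells of the lung use this system as an early defence, and many of the genes keep a low basal level in cultured lines.

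The sequence in front of 4 genes is shown because each of them was higher in 3 of the 9 treated libraries and its upstream window holds the core of the response element. They are the RefSeq windows of GRCh38.p14 from 250 bases before to 50 bases after the start, printed on the strand of the gene. The windows lie at chr1:78649539-78649838 (plus strand) for IFI44, chr1:27672143-27672442 (minus) for IFI6, chr10:89392373-89392672 (plus) for IFIT1 and chr17:78979874-78980173 (minus) for LGALS3BP. Capitals mark the core searched, GAAA and GAAA with 2 bases of any kind (NN) between them, on either strand. On the other strand it reads TTTC and TTTC with NN between them.
IFI44: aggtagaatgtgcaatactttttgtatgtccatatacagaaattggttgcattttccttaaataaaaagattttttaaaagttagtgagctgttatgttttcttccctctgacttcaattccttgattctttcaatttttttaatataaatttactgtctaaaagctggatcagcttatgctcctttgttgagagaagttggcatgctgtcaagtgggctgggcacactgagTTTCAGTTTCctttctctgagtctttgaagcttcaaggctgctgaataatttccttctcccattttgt
IFI6: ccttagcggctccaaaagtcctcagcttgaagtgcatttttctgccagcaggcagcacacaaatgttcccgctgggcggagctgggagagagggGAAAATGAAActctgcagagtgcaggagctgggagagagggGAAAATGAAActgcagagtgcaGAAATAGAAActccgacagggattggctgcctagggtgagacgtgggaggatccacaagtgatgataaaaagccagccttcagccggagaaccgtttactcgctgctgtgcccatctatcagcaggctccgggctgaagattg
IFIT1: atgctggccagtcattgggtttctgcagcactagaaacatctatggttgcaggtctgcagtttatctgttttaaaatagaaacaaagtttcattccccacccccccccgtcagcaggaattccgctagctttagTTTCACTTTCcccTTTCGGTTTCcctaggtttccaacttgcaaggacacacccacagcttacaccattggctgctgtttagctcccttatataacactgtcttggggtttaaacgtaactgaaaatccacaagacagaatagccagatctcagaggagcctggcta
LGALS3BP: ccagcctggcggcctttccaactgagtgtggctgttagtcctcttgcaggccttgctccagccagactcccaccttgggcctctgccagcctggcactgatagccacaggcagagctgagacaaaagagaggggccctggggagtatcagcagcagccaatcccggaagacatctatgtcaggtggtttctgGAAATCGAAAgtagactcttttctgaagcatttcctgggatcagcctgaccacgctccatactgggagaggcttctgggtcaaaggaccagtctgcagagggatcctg
IFI6 held 3 cores, with first bases 156, 115 and 93 bases before the start. IFIT1 held 2 cores, at 116 and 103 bases, LGALS3BP held 1 at 58 bases and IFI44 held 1 at 18 bases before the start. Of the 52 genes, 42 had a window in the table, and 29 of these (69.0%) held the core, against 4.38% of the 27305 genes listed. The core was in 14 of the 20 genes with a window that were higher in at least 1 treated library and in 15 of the 22 that were not. These matches describe letters in a window and say nothing of binding.

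Each treated library was set against its own control within its table. Levels are CPM, counts relative to the library total after trimmed-mean (TMM) scaling, and a gene was measured in a pair when it reached 1 CPM in either library. Log2 ratios were taken on CPM plus 0.5, which shrinks the ratios of weakly expressed genes. Folds are ratios of CPM with nothing added. A call of higher or lower needed a log2 ratio of at least 1 in size, a 2-fold difference, and an exact 95% counting interval of the fold that left out equality. With 1 library per group, no difference has a replicate check and no p-value is given. The intervals cover counting error only. In bulk RNA, fewer cells that express a gene and less RNA per cell cannot be told apart.

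Library totals ran from 18672570 to 21717807 counts. In the library labelled CRISPRi_PRR11+SKA2 promoter-sgRNA#1, PRR11 had 14 counts against 2029 with the mock guide, and SKA2 had 5 against 1594. Some lentiviral labels were not borne out. SKA2 was at 60.4 CPM in the library labelled LV-SKA2 and 63.5 CPM in that labelled LV-P+S, against 71.6 CPM in LV-vector-PS, while PRR11 was at 121 CPM in the library labelled LV-PRR11 against 111 CPM in LV-vector-PS. MIR454 had 468 counts in the library labelled LV-miR454, 28 in that labelled LV-miR301a and 0 in that labelled LV-3+4. MIR301A went with its labels, with 29 counts in LV-miR301a, 34 in LV-3+4 and 0 in LV-miR454 and LV-vector-34. The precursors had 0 counts in the CRISPRd libraries, their control included, so they do not check the knockouts. PRR11 was at 95.7 CPM in the miR-301a knockout and 90.6 CPM in the miR-454 knockout, against 132 CPM in CRISPRd_Control. SKA2 was at 62.7 CPM in the miR-301a knockout and 44.3 CPM in the miR-454 knockout, against 63.3 CPM in CRISPRd_Control. The A549 epithelial markers EPCAM, KRT8, KRT18 and CDH1 were detected in every library, and the fifth, KRT19, had 0 and 1 counts in the miR-301a and miR-454 knockouts against 355 in CRISPRd_Control.

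Of the 52 genes, 48 were measured in at least 1 of the 9 pairs and 37 in all 9. MX2, EPSTI1, CXCL10 and CXCL11 were measured in none. In all, 28 genes were called higher in at least 1 pair, and 3 were called lower (IFITM1, ISG20 and HERC5). The calls lay mostly in 2 pairs, the CRISPRi pair with 21 genes higher and the miR-454 knockout with 17.

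**Figure D1:**
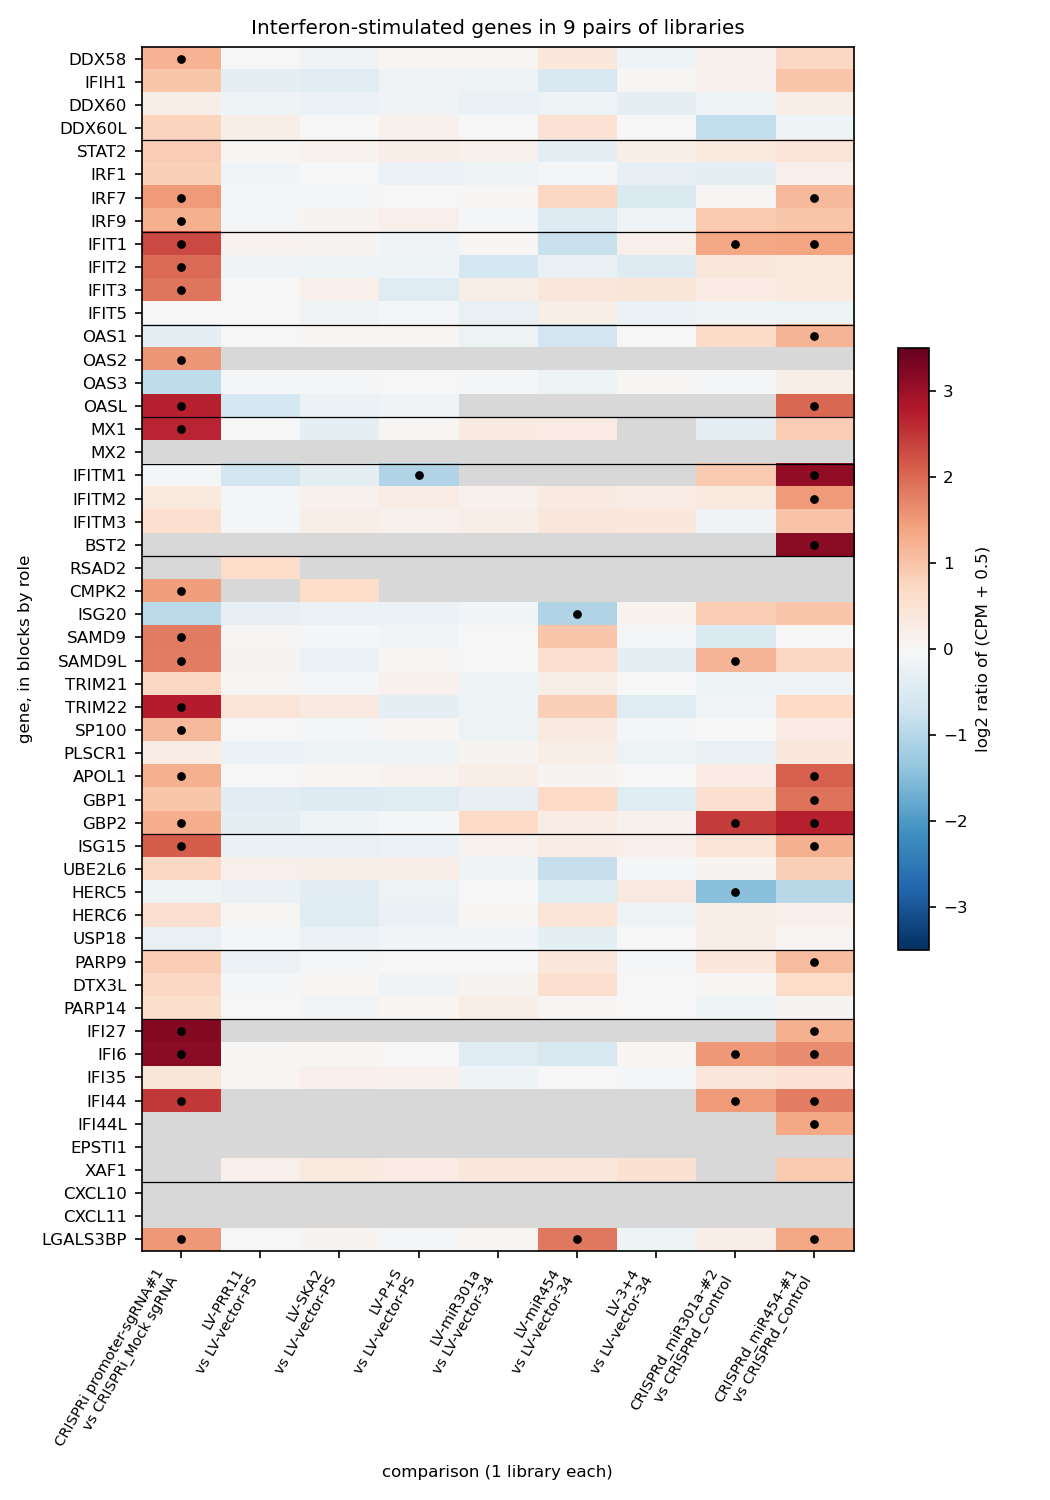
Log2 ratio of CPM plus 0.5 for each of the 52 genes (rows, in blocks by role) in the 9 pairs of treated library over control (columns, 1 library each). Red is higher and blue lower in the treated library, grey marks genes under 1 CPM in both libraries, and dots mark called genes, 21 of them in the CRISPRi column and 17 in the miR-454 knockout column.

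In the CRISPRi pair, 44 genes were measured, and 21 of them (47.7%) were called higher in the promoter-guide library, where 9.43% of all 15003 measured genes were called higher. None was called lower, against 5.97% of all genes. Of the 44, 38 lay above 0 on the log2 scale and 6 below, with a median log2 ratio of 0.96, against -0.04 for all measured genes. For 6 of the 44, OAS2, OASL, MX1, CMPK2, IFI27 and IFI44, only the promoter-guide library reached 1 CPM, so they could enter only by being higher there. Among the other 38, 15 (39.5%) were called higher, with a median log2 ratio of 0.84. The summed level of the measured genes was 1365 CPM in the promoter-guide library and 706 CPM in the mock library. LGALS3BP alone made up 467 CPM of this sum with the promoter guide and 164 CPM with the mock guide.

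**Figure D2:**
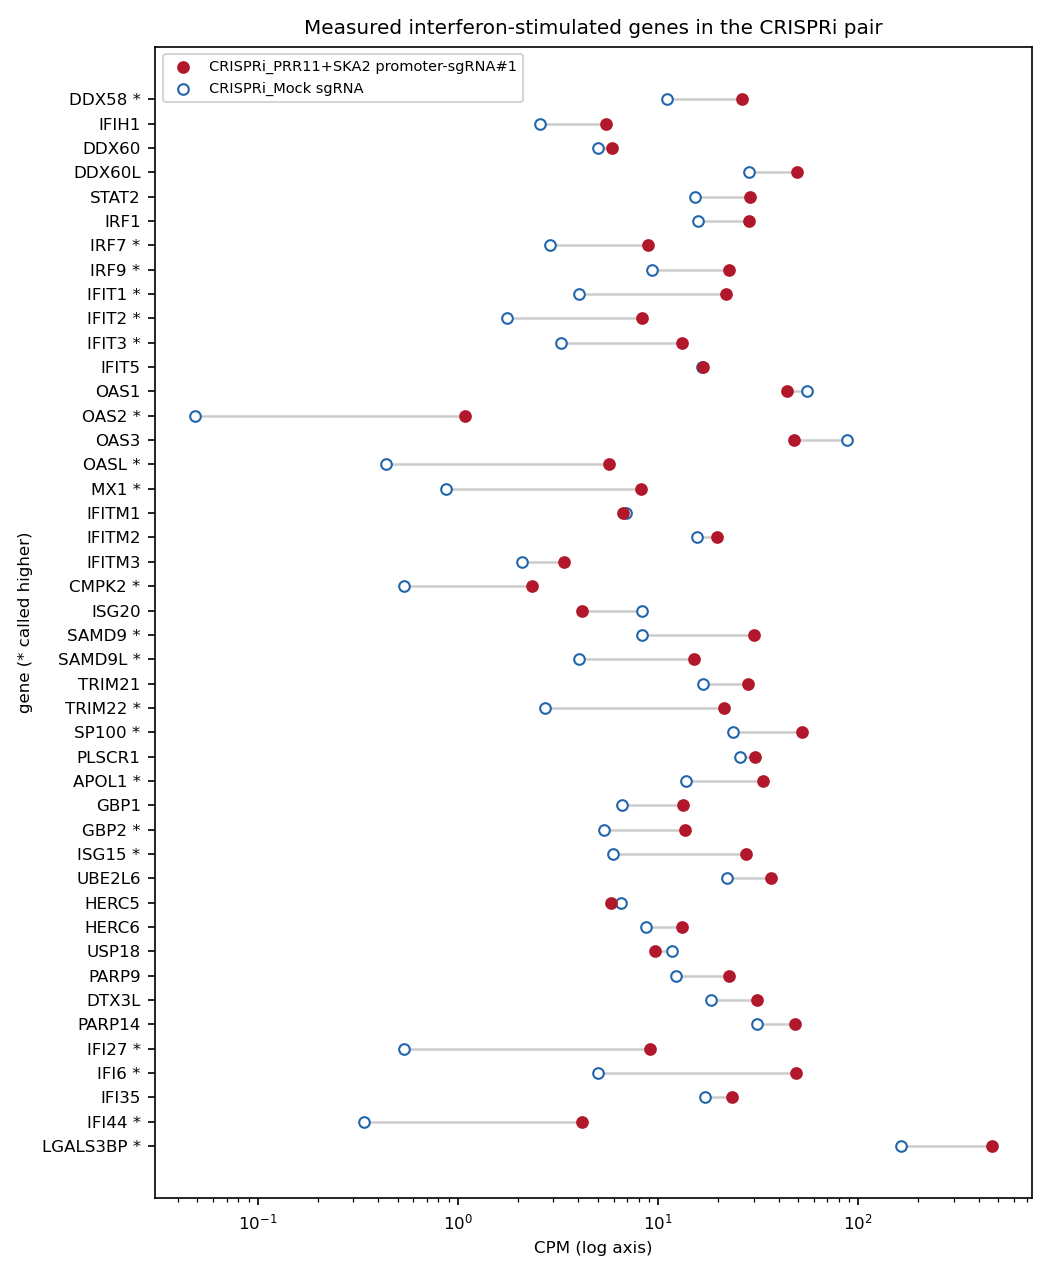
CPM (log axis) of the 44 measured genes in CRISPRi_PRR11+SKA2 promoter-sgRNA#1 (filled) and CRISPRi_Mock sgRNA (open), 1 library each, with a star on the 21 called higher. The longest lines join the points of OAS2, IFI27, OASL and IFI44, and OAS1, OAS3 and ISG20 have the filled point left of the open point.

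Among the sensors of viral RNA, DDX58, which encodes RIG-I, was at 26.3 CPM in the promoter-guide library and 11.1 CPM in the mock library, a fold of 2.38 (2.04 to 2.79). IFIH1, the sensor MDA5 of long double-stranded RNA, lay just under the rule at 5.49 CPM with the promoter guide and 2.58 CPM with the mock guide, with a log2 ratio of 0.96. The related helicases DDX60L (49.4 CPM with the promoter guide and 28.5 CPM with the mock guide) and DDX60 (5.90 CPM with the promoter guide and 5.01 CPM with the mock guide) were not called. All 4 sensors thus lay above 0, and 1 was called.

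Among the transcription factors, IRF9, the DNA-binding subunit of the STAT complex, was at 22.6 CPM with the promoter guide and 9.35 CPM with the mock guide, a fold of 2.42 (2.05 to 2.87). IRF7, which drives a later wave of interferon genes, was at 8.89 CPM with the promoter guide and 2.87 CPM with the mock guide, a fold of 3.09 (2.3 to 4.21). STAT2, the partner of IRF9 in the complex, was at 28.7 CPM in the promoter-guide library and 15.3 CPM in the mock library, with a log2 ratio of 0.89, and was not called. IRF1, a factor also induced by interferon gamma, was at 28.4 CPM with the promoter guide and 15.8 CPM with the mock guide (log2 ratio 0.82).

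The IFIT genes lie side by side on chromosome 10, from IFIT2 at 89283694 to the end of IFIT5 at 89421001 (GENCODE 29, GRCh38), and encode proteins that bind foreign RNA ends. IFIT1 was at 21.9 CPM in the promoter-guide library and 4.04 CPM in the mock library, a fold of 5.43 (4.30 to 6.94). IFIT2 was at 8.34 CPM with the promoter guide and 1.75 CPM with the mock guide (4.76-fold, 3.32 to 7.01) and IFIT3 at 13.2 CPM with the promoter guide and 3.26 CPM with the mock guide (4.03-fold, 3.08 to 5.34). IFIT5, the last gene of the cluster, was at 16.7 CPM with the promoter guide and 16.6 CPM with the mock guide. So 3 of the 4 neighbours were called higher and IFIT5 differed by a log2 ratio of 0.01.

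The OAS genes encode enzymes that make 2′-5′ oligoadenylates, which switch on the RNA-cutting enzyme RNase L. They split in this pair. OASL, a relative without that activity, was at 5.71 CPM in the promoter-guide library and 0.438 CPM in the mock library, from 126 counts with the promoter guide and 9 with the mock guide, a fold of 13 (6.66 to 29.2). OAS2 had 24 counts with the promoter guide and 1 count with the mock guide (1.09 CPM with the promoter guide and 0.0487 CPM with the mock guide), a fold of 22.4 with the wide interval of 3.65 to 919. Its neighbours on chromosome 12 lay below 0, OAS1 at 44.1 CPM with the promoter guide and 55.8 CPM with the mock guide and OAS3 at 47.8 CPM with the promoter guide and 88.3 CPM with the mock guide. The fold of OAS3 was 0.541 (0.501 to 0.584), a log2 ratio of -0.88 that did not reach the rule.

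MX1, a dynamin-like GTPase that traps viral nucleocapsids, was at 8.25 CPM in the promoter-guide library and 0.876 CPM in the mock library, from 182 counts with the promoter guide and 18 with the mock guide, a fold of 9.42 (5.79 to 16.3). Its neighbour MX2 had 0.0453 CPM with the promoter guide and 0.0487 CPM with the mock guide and was not measured. The IFITM proteins, which hinder fusion of viruses with the cell membrane, showed no call. IFITM1 was at 6.67 CPM in the promoter-guide library and 6.91 CPM in the mock library, IFITM2 at 19.8 CPM with the promoter guide and 15.6 CPM with the mock guide and IFITM3 at 3.40 CPM with the promoter guide and 2.09 CPM with the mock guide. BST2 (tetherin), which holds budding virions at the cell surface, stayed under 1 CPM in both.

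Of the 12 other antiviral effectors, 11 were measured and 7 were called higher, where 9.43% of all genes were. Among the 7, CMPK2 could enter only by being higher with the promoter guide. TRIM22, a ubiquitin ligase that restricts viral transcription, was at 21.4 CPM in the promoter-guide library and 2.73 CPM in the mock library, a fold of 7.83 (5.93 to 10.5). The paralogues SAMD9 and SAMD9L, neighbours on chromosome 7 that restrict poxviruses, were at 30.3 and 15.1 CPM with the promoter guide, against 8.28 and 4.04 CPM with the mock guide. Their folds were 3.66 (3.09 to 4.36) and 3.75 (2.94 to 4.83). CMPK2, a mitochondrial nucleotide kinase, was at 2.36 CPM in the promoter-guide library and 0.535 CPM in the mock library (4.4-fold, 2.27 to 9.36). The guanylate-binding protein GBP2 (13.6 CPM with the promoter guide and 5.35 CPM with the mock guide, 2.54-fold), the apolipoprotein APOL1 (33.6 CPM with the promoter guide and 13.8 CPM with the mock guide, 2.43-fold) and the nuclear-body protein SP100 (52.7 CPM with the promoter guide and 23.7 CPM with the mock guide, 2.23-fold) were also called. GBP1 lay just under the rule at 13.3 CPM with the promoter guide and 6.57 CPM with the mock guide, a log2 ratio of 0.96. ISG20, an exonuclease that degrades RNA, went the other way without reaching the rule, at 4.17 CPM with the promoter guide and 8.32 CPM with the mock guide. RSAD2 (viperin), which makes a chain-ending nucleotide, had 16 counts with the promoter guide (0.726 CPM) and 0 with the mock guide, and was not measured.

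ISG15, a ubiquitin-like protein that is joined to other proteins and also secreted, was at 27.7 CPM in the promoter-guide library and 5.94 CPM in the mock library, a fold of 4.66 (3.83 to 5.70). The enzymes that attach or remove it were not called. The conjugating enzyme UBE2L6 was at 36.8 CPM with the promoter guide and 22.2 CPM with the mock guide, the ligase HERC5 at 5.80 CPM with the promoter guide and 6.52 CPM with the mock guide, its relative HERC6 at 13.2 CPM with the promoter guide and 8.71 CPM with the mock guide and the ISG15 protease USP18, a brake on interferon receptor signalling, at 9.66 CPM with the promoter guide and 11.7 CPM with the mock guide. The ADP-ribosyltransferase relatives PARP9 and PARP14 and the ligase DTX3L, which works with PARP9, had log2 ratios of 0.62 to 0.85 with none called.

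The small interferon-induced proteins held the 2 largest log2 ratios of the pair. IFI27, a mitochondrial and nuclear-membrane protein, was at 9.11 CPM in the promoter-guide library and 0.535 CPM in the mock library, from 201 counts with the promoter guide and 11 with the mock guide, a fold of 17.0 (9.31 to 34.6). IFI6, a membrane protein linked to cell survival, was at 48.7 CPM with the promoter guide and 5.01 CPM with the mock guide, a fold of 9.70 (7.92 to 12.0). IFI44 was at 4.17 CPM with the promoter guide and 0.341 CPM with the mock guide, a fold of 12.2 (5.71 to 31.3). Its neighbour on chromosome 1, IFI44L, had 22 counts with the promoter guide and 2 with the mock guide and fell just short of the minimum at 0.998 CPM, while OAS2 entered at 1.09 CPM. LGALS3BP, a secreted glycoprotein that binds galectin-3, was at 467 CPM in the promoter-guide library and 164 CPM in the mock library, a fold of 2.84 (2.73 to 2.96). The chemokine genes CXCL10 and CXCL11 had 1 count each with the promoter guide and 0 with the mock guide.

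The other genes of the pathway were read from 5 lists. Of 10 interferon genes, IFNE alone was measured in the CRISPRi pair. IFNE, an epithelial type I interferon, was at 5.53 CPM in the promoter-guide library and 1.56 CPM in the mock library, with a log2 ratio of 1.55, and was called higher. None of the 9 measured receptor and kinase genes and none of the 9 measured brakes was called. Of 13 measured sensing and relay genes, IFI16, a DNA sensor that stands in 2 of the lists, was higher (17.6 CPM with the promoter guide and 3.31 CPM with the mock guide) and CGAS, the cyclic GMP-AMP synthase, was lower (2.13 CPM with the promoter guide and 5.11 CPM with the mock guide). Of 42 other interferon-responsive genes, 7 (16.7%) were called higher, against 9.43% of all genes, and none lower, against 5.97%, with a median log2 ratio of 0.21. They were CD274 (PD-L1, 14.0 CPM with the promoter guide and 1.31 CPM with the mock guide), SLFN5 (33.4 CPM with the promoter guide and 7.16 CPM with the mock guide), IFI16, GBP3, PARP10, SP110 and CASP1.

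Markers of other cells also differed in this pair. The summed level of 11 leukocyte markers was 85.8 CPM in the promoter-guide library and 34.5 CPM in the mock library. Of this sum CD68, a lysosomal protein, made up 80.0 CPM with the promoter guide and 27.5 CPM with the mock guide. Of 4 measured markers, CD68 and CD79A (27 counts with the promoter guide and 5 with the mock guide) were called higher. CD14 (2.81 CPM with the promoter guide and 3.94 CPM with the mock guide) and ITGAM (1.45 CPM with the promoter guide and 2.43 CPM with the mock guide) lay below 0 and were not called. CD3E and HLA-DRA had 0 counts in both, and PTPRC, the pan-leukocyte marker, had 2 counts with the promoter guide and 0 with the mock guide. Of the 4 markers of plasmacytoid dendritic cells, LILRA4 and CLEC4C were at 0 in both libraries. IL3RA, an interleukin-3 receptor chain, was called higher, at 4.90 CPM with the promoter guide and 2.04 CPM with the mock guide, and TCF4 was not called, at 6.76 CPM with the promoter guide and 5.65 CPM with the mock guide. The sum of 9 fibroblast markers was 243 CPM with the promoter guide and 34.8 CPM with the mock guide, with 5 of 6 measured genes called higher. FBN1, a microfibril protein, made up 207 CPM of the sum with the promoter guide and 22.1 CPM with the mock guide. DCN had 1 count in each library, COL1A2 had 2 counts with the promoter guide and 0 with the mock guide, and COL3A1 was at 0.862 CPM with the promoter guide and 1.90 CPM with the mock guide. Of the 5 epithelial markers, EPCAM (2.22 CPM with the promoter guide and 7.35 CPM with the mock guide) and CDH1 (28.7 CPM with the promoter guide and 87.3 CPM with the mock guide) were called lower, and KRT19 (127.5 CPM with the promoter guide and 20.3 CPM with the mock guide) was called higher. The part of these markers in the interferon-stimulated genes was not tested.

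In the lentiviral gene set, 1 interferon-stimulated gene was called. LV-PRR11, LV-SKA2 and LV-P+S share LV-vector-PS as their control. None of 42 measured genes was called in the library labelled LV-PRR11, where 0.187% of all genes were higher and 0.134% lower. None of 42 was called in that labelled LV-SKA2, where 0.141% of all genes were higher and 0.111% lower. Of 41 measured genes, IFITM1 alone was called in the library labelled LV-P+S, and it was lower, where 0.134% of all genes were higher and 0.127% lower. In that pair IFITM1 reached 1 CPM only in LV-vector-PS, so it could enter only by being lower in LV-P+S. IFITM1 had 1.07 CPM (LV-PRR11), 1.5 CPM (LV-SKA2) and 0.685 CPM (LV-P+S), against 1.96 CPM in LV-vector-PS. In LV-P+S these were 13 counts against 37, a fold of 0.349 (0.170 to 0.671). The level was below the vector in all 3 libraries, which share that control, and the call in LV-P+S is lost with a minimum of 5 CPM. The median log2 ratios of the measured genes were -0.02 (LV-PRR11), -0.03 (LV-SKA2) and -0.06 (LV-P+S), and those of all genes were -0.00 in each pair.

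None of the 21 genes higher in the CRISPRi pair was called in the lentiviral gene set. IFI6 was at 8.39 CPM (LV-PRR11), 8.5 CPM (LV-SKA2) and 8.06 CPM (LV-P+S), against 8.06 CPM in LV-vector-PS. IFIT1 was at 5.13 CPM (LV-PRR11), 5.03 CPM (LV-SKA2) and 4.27 CPM (LV-P+S), against 4.67 CPM in LV-vector-PS. LGALS3BP was at 121 CPM (LV-PRR11), 127 CPM (LV-SKA2) and 114 CPM (LV-P+S), against 120 CPM in LV-vector-PS. The 3 treated libraries lay on both sides of the vector for IFIT1 and LGALS3BP.

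In the lentiviral microRNA set, LV-miR301a, LV-miR454 and LV-3+4 share LV-vector-34. None of 39 measured genes was called in the library labelled LV-miR301a, where 0.359% of all genes were higher and 0.372% lower. None of 38 was called in that labelled LV-3+4, where 0.285% were higher and 0.36% lower. In the library labelled LV-miR454, 1 of 39 measured genes was called higher, where 2.97% of all genes were, and 1 was called lower, where 3.42% were, so the shares did not stand above the background. LGALS3BP was at 67.3 CPM in LV-miR301a, 235 CPM in LV-miR454 and 58.5 CPM in LV-3+4, against 64.7 CPM in LV-vector-34. It was 3.63-fold (3.41 to 3.87) higher in LV-miR454, which stood apart from the other 3 libraries of the set. ISG20 was at 15.9 CPM in LV-miR301a, 7.92 CPM in LV-miR454 and 18.6 CPM in LV-3+4, against 17.0 CPM in LV-vector-34, and was lower in LV-miR454 (fold 0.467, 0.382 to 0.569).

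Further genes of the library labelled LV-miR454 had counting intervals that left out equality without reaching the rule, and only some are given here. Among those above 0, DDX60L was at 28.5 CPM in LV-miR454 and 20.1 CPM in LV-vector-34. SAMD9 was at 8.98 CPM in LV-miR454 and 4.34 CPM in LV-vector-34 (2.07-fold, 1.58 to 2.72), and TRIM22 at 2.80 CPM in LV-miR454 and 1.36 CPM in LV-vector-34. UBE2L6 was at 28.0 CPM in LV-miR454 and 49.3 CPM in LV-vector-34 (fold 0.569, 0.511 to 0.634), OAS1 at 47.3 CPM in LV-miR454 and 76.1 CPM in LV-vector-34 (0.622, 0.571 to 0.676) and IFIT1 at 1.53 CPM in LV-miR454 and 2.98 CPM in LV-vector-34 (0.514, 0.317 to 0.817). The genes thus lay on both sides, 24 above 0 and 15 below, with a median log2 ratio of 0.23. In the pathway lists of this pair, IFI16 (2.80 CPM in LV-miR454 and 0.942 CPM in LV-vector-34), CASP4 (7.61 CPM in LV-miR454 and 2.25 CPM in LV-vector-34) and NLRC5 (5.55 CPM in LV-miR454 and 1.94 CPM in LV-vector-34) were called higher and TMEM140 (0.951 CPM in LV-miR454 and 4.45 CPM in LV-vector-34) lower. Cell markers differed here too. Of 4 measured fibroblast markers 3 were called higher and 1 lower, and of 5 epithelial markers 1 higher (KRT19) and 1 lower (CDH1). In LV-miR301a, 2 of 3 measured fibroblast markers were called higher. The part of these markers was not tested.

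**Figure D3:**
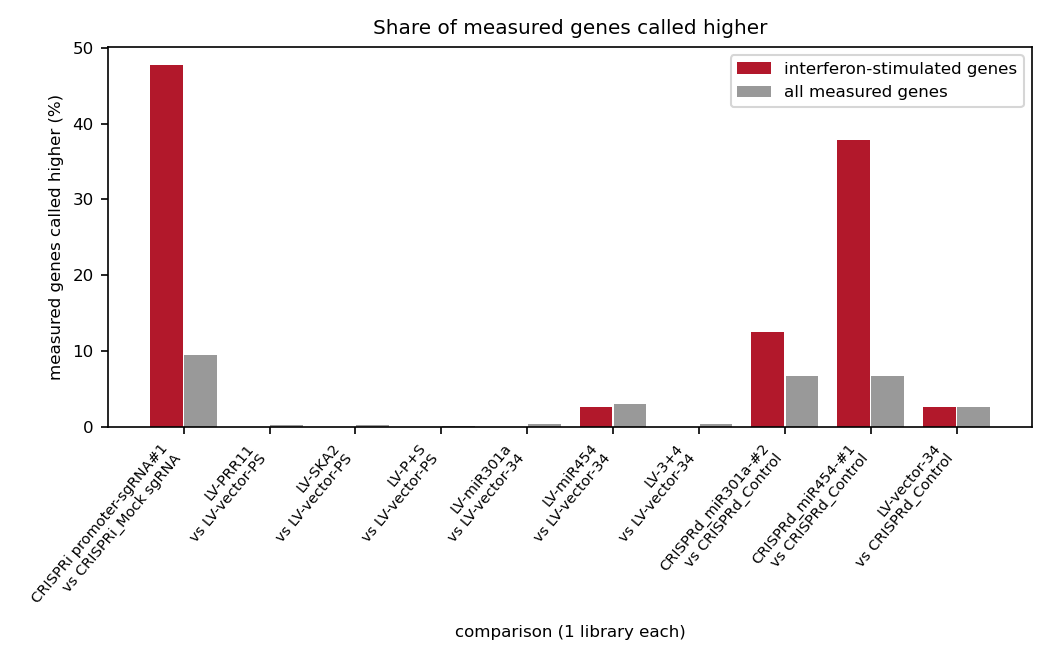
Percentage of measured interferon-stimulated genes (red) and of all measured genes (grey) called higher in the 9 treated libraries, each over its own control, and in LV-vector-34 over CRISPRd_Control, 1 library each. The red bar is 47.7% against 9.43% in the CRISPRi pair and 37.8% against 6.62% in the miR-454 knockout, and both bars are 2.97% or lower in the lentiviral pairs.

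The 2 knockout libraries share CRISPRd_Control. In the miR-454 knockout, 45 genes were measured and 17 (37.8%) were called higher, where 6.62% of all 15013 measured genes were. None was called lower, against 3.1% of all genes, and the median log2 ratio was 0.88, against -0.01 for all genes. Of the 45 genes, 40 lay above 0. For OASL, IFITM1, BST2, IFI27, IFI44, IFI44L and XAF1, only the knockout library reached 1 CPM. Among the other 38 genes, 11 (28.9%) were called higher, with a median log2 ratio of 0.71. The summed level of the measured genes was 1510 CPM in the knockout and 819 CPM in CRISPRd_Control. LGALS3BP alone made up 420 CPM of this sum in the knockout and 163 CPM in CRISPRd_Control. In the miR-301a knockout, 40 genes were measured, 5 (12.5%) were called higher, where 6.72% of all 15072 genes were, and 1 was called lower, where 4.15% were. The median log2 ratio there was 0.23. For IFITM1 and IFI44 only the miR-301a knockout reached 1 CPM, and among the other 38 genes 4 (10.5%) were called higher, with a median log2 ratio of 0.19.

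**Figure D4:**
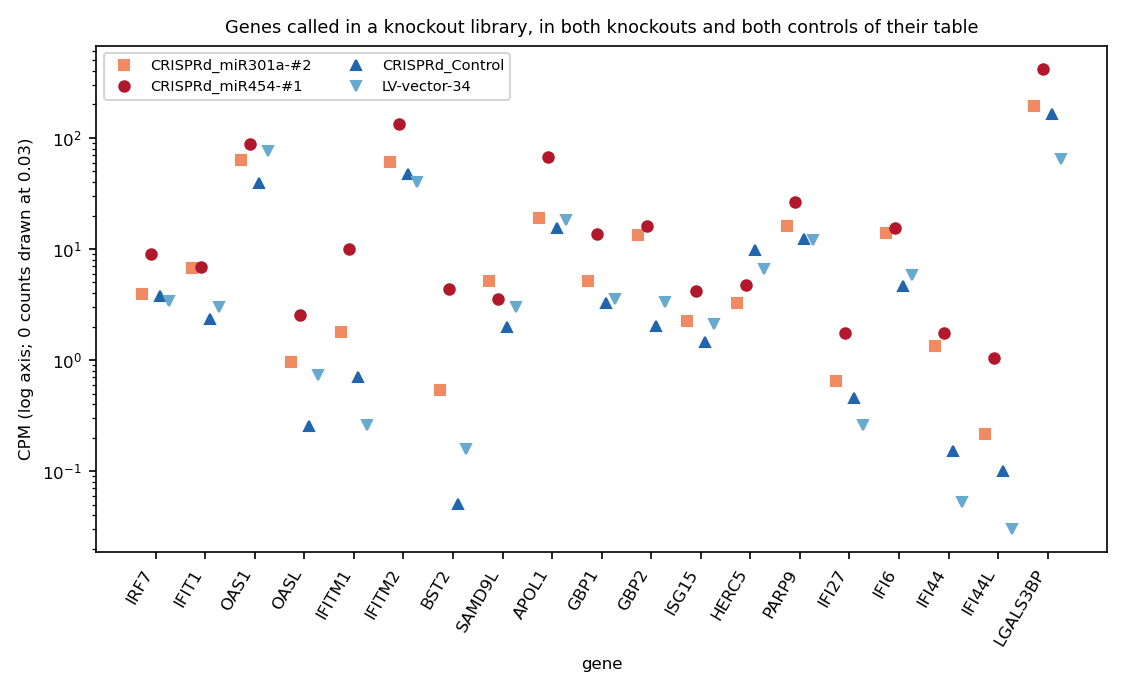
CPM (log axis, 0 counts drawn at 0.03) of the 19 genes called in a knockout library, in CRISPRd_miR301a-#2 (squares), CRISPRd_miR454-#1 (circles), CRISPRd_Control (upward triangles) and LV-vector-34 (downward triangles), 1 library each. The circle is the highest point for most genes, SAMD9L and HERC5 being the exceptions, and HERC5 has both knockouts below both controls.

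The IFITM and tetherin group was called higher in the miR-454 knockout in 3 of 4 genes, where 6.62% of all genes were. IFITM1 and BST2 were under 1 CPM in CRISPRd_Control, so they could enter this pair only by being higher in the knockout. IFITM1 was at 1.78 CPM in the miR-301a knockout and 9.93 CPM in the miR-454 knockout, against 0.709 CPM in CRISPRd_Control. In the miR-454 knockout these were 181 counts against 14, a fold of 14.0 (8.13 to 26.1). BST2 was at 0.539 CPM in the miR-301a knockout and 4.39 CPM in the miR-454 knockout, against 0.0507 CPM in the control, and its 80 counts against 1 in the miR-454 knockout give a fold of 86.6 with an interval of 15.1 to 3465. IFITM2 was at 60.2 CPM in the miR-301a knockout and 134 CPM in the miR-454 knockout, against 47.0 CPM in the control, which is 2.85-fold (2.65 to 3.08) for the miR-454 knockout. IFITM3 lay just under the rule in the miR-454 knockout, at 36.8 CPM against 18.2 CPM in the control. All 4 genes were highest in the miR-454 knockout among the 3 CRISPRd libraries. The 3 IFITM genes are close relatives and the GENCODE 29 span of IFITM2 covers IFITM1, so reads may have been split between them.

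The antiviral effectors APOL1, GBP1 and GBP2 were also called higher in the miR-454 knockout. APOL1 was at 19.1 CPM in the miR-301a knockout and 67.7 CPM in the miR-454 knockout, against 15.6 CPM in CRISPRd_Control, a fold of 4.35 (3.84 to 4.95) in the miR-454 knockout. GBP1 was at 5.12 CPM in the miR-301a knockout and 13.6 CPM in the miR-454 knockout, against 3.29 CPM in the control (4.13-fold, 3.13 to 5.52, in the miR-454 knockout). GBP2 was at 13.3 CPM in the miR-301a knockout and 16.2 CPM in the miR-454 knockout, against 2.03 CPM in the control, and was called in both knockouts, 6.57-fold (4.69 to 9.42) in the miR-301a knockout and 8.01-fold (5.75 to 11.4) in the miR-454 knockout. SAMD9L was called in the miR-301a knockout alone, at 5.17 CPM there and 3.57 CPM in the miR-454 knockout, against 1.98 CPM in the control. Its paralogue SAMD9 was at 3.02 CPM in the miR-301a knockout and 4.28 CPM in the miR-454 knockout, against 4.36 CPM in the control, and was not called.

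Among the sensors none was called in either knockout, and among the transcription factors only IRF7 was. IRF7 was at 3.93 CPM in the miR-301a knockout and 8.94 CPM in the miR-454 knockout, against 3.80 CPM in the control, a fold of 2.35 (1.78 to 3.14) in the miR-454 knockout. This value sums the numbered rows of IRF7 in the table, and the log2 ratio of 1.14 becomes -0.71 with those rows left out. IRF9 was at 26 CPM in the miR-301a knockout and 27.3 CPM in the miR-454 knockout, against 13.6 CPM in the control, with log2 ratios of 0.91 and 0.98, short of the rule in both.

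The RNA-binding and oligoadenylate groups were each called in part. IFIT1 was at 6.68 CPM in the miR-301a knockout and 6.91 CPM in the miR-454 knockout, against 2.33 CPM in CRISPRd_Control, folds of 2.87 (2.03 to 4.12) and 2.97 (2.10 to 4.25). IFIT2, IFIT3 and IFIT5 were not called in either knockout. OAS1 was at 62.7 CPM in the miR-301a knockout and 88.6 CPM in the miR-454 knockout, against 38.9 CPM in the control, and was called in the miR-454 knockout (2.28-fold, 2.09 to 2.49). OASL was at 0.970 CPM in the miR-301a knockout and 2.52 CPM in the miR-454 knockout, against 0.253 CPM in the control, from 46 counts against 5 in the miR-454 knockout. MX1 was at 1.83 CPM in the miR-301a knockout and 4.99 CPM in the miR-454 knockout, against 2.48 CPM in the control, and was called in neither pair.

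In the ISG15 system, ISG15 was at 2.26 CPM in the miR-301a knockout and 4.17 CPM in the miR-454 knockout, against 1.47 CPM in the control, and was called in the miR-454 knockout (2.84-fold, 1.83 to 4.52). The ligase HERC5 was at 3.23 CPM in the miR-301a knockout and 4.77 CPM in the miR-454 knockout, against 9.83 CPM in the control. It was called lower in the miR-301a knockout, with a fold of 0.329 (0.242 to 0.442), and had a log2 ratio of -0.97 in the miR-454 knockout. PARP9 was at 16.0 CPM in the miR-301a knockout and 26.7 CPM in the miR-454 knockout, against 12.2 CPM in the control, and was called in the miR-454 knockout (2.18-fold, 1.87 to 2.56), a call lost when libraries are scaled by total counts (log2 ratio 0.99). PARP9 and DTX3L overlap on opposite strands, and no source used here gives the strand setting of the counting.

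Among the small interferon-induced proteins, IFI6 was at 14.0 CPM in the miR-301a knockout and 15.6 CPM in the miR-454 knockout, against 4.61 CPM in CRISPRd_Control, folds of 3.04 (2.39 to 3.90) and 3.38 (2.66 to 4.33). IFI44 was at 1.35 CPM in the miR-301a knockout and 1.76 CPM in the miR-454 knockout, from 25 counts in the miR-301a knockout and 32 in the miR-454 knockout against 3 in the control, folds of 8.87 (2.71 to 45.9) and 11.6 (3.61 to 59.0). IFI27 (32 counts in the miR-454 knockout against 9 in the control, 3.85-fold, 1.8 to 9.17) and IFI44L (19 counts in the miR-454 knockout against 2 in the control, 10.3-fold, 2.48 to 91.1) were called in the miR-454 knockout. The call of IFI27 is lost with numbered copies left out, and that of IFI44L when libraries are scaled by total counts, each then under 1 CPM in both libraries. LGALS3BP was at 192 CPM in the miR-301a knockout and 420 CPM in the miR-454 knockout, against 163 CPM in the control, and was 2.58-fold (2.48 to 2.69) higher in the miR-454 knockout.

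The direct comparison of the knockouts leaves out the shared control. Of 45 measured genes, 11 were called higher in the miR-454 knockout than in the miR-301a knockout, where 3.65% of all genes were, and none was lower, where 2.76% were. For OASL, BST2, IFI27, IFI44L and XAF1 only the miR-454 knockout reached 1 CPM, and among the other 40 genes 8 (20.0%) were called higher. The 11 were IRF7, OASL, MX1, IFITM1, IFITM2, IFITM3, BST2, APOL1, GBP1, IFI44L and LGALS3BP. The value of IRF7 sums its numbered rows, and this comparison was not repeated without them. IFITM1 differed 5.58-fold (3.84 to 8.36), BST2 8.14-fold (4.21 to 17.6) and APOL1 3.54-fold (3.14 to 3.99). IFIT1, IFI6, IFI44 and GBP2, called higher in both knockouts, were not among them.

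The pathway lists held calls in the knockouts too. In the miR-301a knockout, TLR3, TMEM173 (STING) and IFI16 were called higher, 3 (21.4%) of 14 measured sensing genes against 6.72% of all genes, and CGAS was called lower, at 0.377 CPM against 4.61 CPM in the control. In the miR-454 knockout, IFI16 was higher, 1 (7.69%) of 13 measured sensing genes against 6.62% of all genes (6.48 CPM against 1.72 CPM in the control), and IFNGR1, a chain of the interferon gamma receptor, was higher at 127 CPM against 55.7 CPM in the control. SOCS2, a brake on cytokine signalling, was lower in both, at 8.62 CPM in the miR-301a knockout and 9.16 CPM in the miR-454 knockout, against 19.6 CPM in the control. Of the other interferon-responsive genes, 5 of 44 (11.4%) were called higher in the miR-301a knockout, against 6.72% of all genes, and 3 of 42 (7.14%) in the miR-454 knockout, a share near the 6.62% of all genes. GBP3 and IFI16 were among them in each. IFNE, the only interferon gene measured, was called in neither.

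Leukocyte markers summed to 133 CPM in the miR-301a knockout and 165 CPM in the miR-454 knockout, against 53.9 CPM in CRISPRd_Control. CD68 made up 112 CPM in the miR-301a knockout and 144 CPM in the miR-454 knockout, against 43.3 CPM in the control, and CD14, a monocyte marker, was at 12.9 CPM in the miR-301a knockout and 15.9 CPM in the miR-454 knockout, against 5.98 CPM in the control. Of the measured leukocyte markers, 3 of 4 were called higher in the miR-301a knockout and 2 of 3 in the miR-454 knockout, while CD3E and HLA-DRA had 0 counts in all 3 libraries. PTPRC had 75 counts in the miR-301a knockout and 3 in the miR-454 knockout, against 1 in the control. Among the epithelial markers, CDH1 was called higher in both knockouts, at 169 CPM in the miR-301a knockout and 199 CPM in the miR-454 knockout, against 60.3 CPM in the control. KRT18 was called higher in the miR-301a knockout, and KRT19 lower in both. The fibroblast markers summed to 21.3 CPM in the miR-301a knockout and 28.3 CPM in the miR-454 knockout, against 28.4 CPM in the control. Of these, THY1 was called lower in both knockouts, with 0 counts in each against 81 in the control. The part of the leukocyte, epithelial and fibroblast markers in these results was not tested.

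CRISPRd_Control and LV-vector-34 lie in the same table, so the members could be compared between controls. In LV-vector-34 against CRISPRd_Control, 1 of 38 measured genes was called higher, where 2.62% of all genes were, and 2 were called lower, where 1.73% were. LGALS3BP was at 64.7 CPM in LV-vector-34 and 163 CPM in CRISPRd_Control, MX1 at 0.733 CPM in LV-vector-34 and 2.48 CPM in CRISPRd_Control and ISG20 at 17.0 CPM in LV-vector-34 and 7.70 CPM in CRISPRd_Control. MX1 reached 1 CPM only in CRISPRd_Control, so it could enter only by being lower in LV-vector-34. Against LV-vector-34, the miR-454 knockout had 21 of 45 genes higher, 15 of them among its 17, and none lower, where 5.89% of all genes were higher and 3.38% lower. For 8 of the 45 only the knockout reached 1 CPM, and 7 of these were called. Among the other 37, 14 (37.8%) were called higher. OAS1, at 88.6 CPM in the knockout and 76.1 CPM in LV-vector-34, and ISG15 were lost, and DDX58, IFIH1, IFIT3, DTX3L, IFITM3 and MX1 were added. IFI44L, with 19 counts against 0, was at least 6.64-fold higher there, taking 3 counts as the floor of the control library. Against LV-vector-34, the miR-301a knockout had 6 of 40 genes higher and none lower, where 5.2% of all genes were higher and 3.64% lower, with GBP2, IFI44, IFI6 and IFIT1 called against either control and SAMD9L lost. Among the 37 genes that did not enter through the knockout alone, 4 (10.8%) were called higher. HERC5 was at 3.23 CPM in that knockout and 6.64 CPM in LV-vector-34, and its lower call was lost.

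The CRISPRi pair and the miR-454 knockout pair have no library in common. They shared 10 called genes, 47.6% of the 21 of the CRISPRi pair and 58.8% of the 17 of the knockout, namely IRF7, IFIT1, OASL, APOL1, GBP2, ISG15, IFI27, IFI6, IFI44 and LGALS3BP. Of the 10, OASL, IFI27 and IFI44 entered both pairs through the treated library alone. In the knockout pair, IRF7 reversed its direction and IFI27 lost its call with numbered copies left out. Among genes measured in both pairs, the 10 were 52.6% of the 19 members called in the CRISPRi pair and 66.7% of the 15 called in the knockout. Over all 12840 genes measured in both pairs, 183 were called higher in both, 18.8% of the 971 of the CRISPRi pair and 25.4% of the 721 of the knockout. In the CRISPRi pair 45.2% of these members and 7.56% of all these genes were called higher, and in the knockout 35.7% and 5.62%. Since members were called more often in each pair, their larger shares do not show a closer overlap than that of all genes. Of 42 members measured in both, 32 lay above 0 in both, 4 in the CRISPRi pair alone, 5 in the knockout pair alone and 1 below 0 in both. The miR-301a knockout pair has no library in common with the CRISPRi pair either, and its 5 higher genes were all among the 21. Over all genes measured in both of these pairs, 18.7% of the 718 called higher in the miR-301a knockout were also called in the CRISPRi pair. Of the 40 members measured in both of them, 42.5% were called higher in the CRISPRi pair, against 7.49% of all genes. DDX58, IRF9, IFIT2, IFIT3, OAS2, MX1, CMPK2, SAMD9, SAMD9L, TRIM22 and SP100 were called in the CRISPRi pair and not in the miR-454 knockout, and OAS1, IFITM1, IFITM2, BST2, GBP1, PARP9 and IFI44L the other way. The difference between the pairs has no test, since each rests on 1 library per group.

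**Figure D5:**
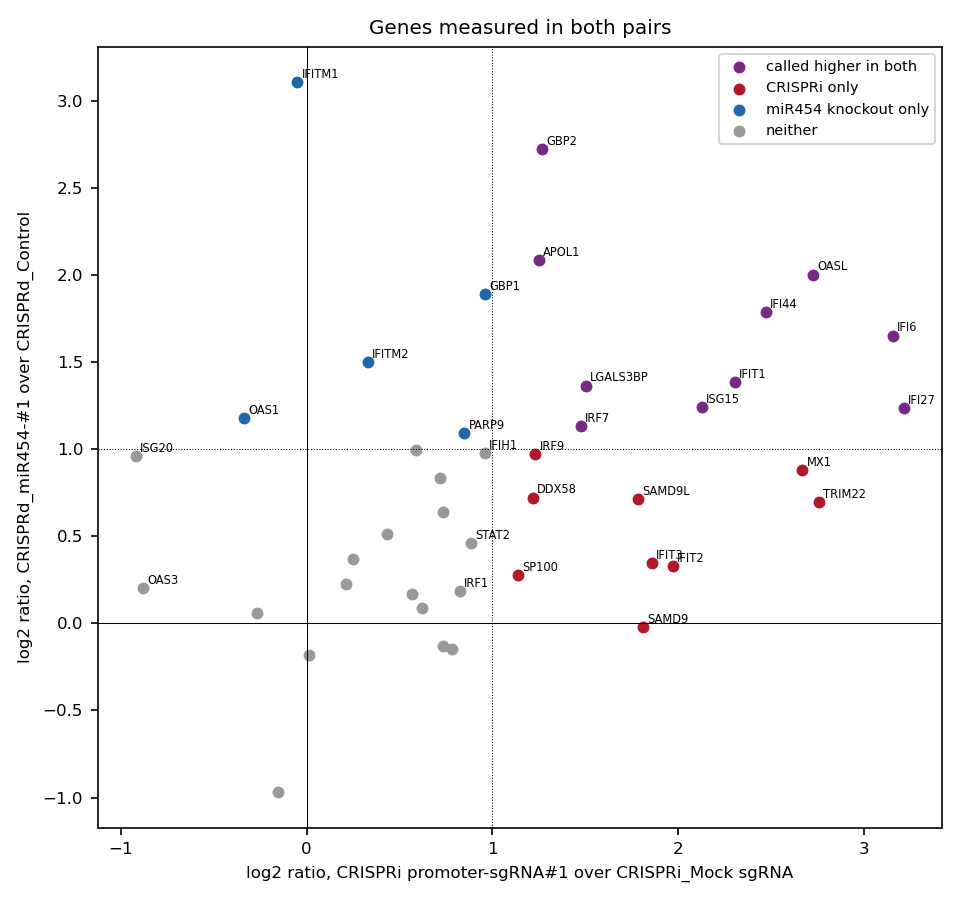
Log2 ratio of CPM plus 0.5 in CRISPRi_PRR11+SKA2 promoter-sgRNA#1 over CRISPRi_Mock sgRNA (x axis) and in CRISPRd_miR454-#1 over CRISPRd_Control (y axis) for the 42 genes measured in both pairs, coloured by where each was called higher, with dotted lines at 1. The 10 genes called in both lie at the upper right, OAS1 and IFITM1 lie left of 0 on the x axis and above 1 on the y axis, and TRIM22 and MX1 lie right of 1 on the x axis and under 1 on the y axis.

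IFIT1, GBP2, IFI6, IFI44 and LGALS3BP were each called higher in 3 of the 9 pairs, and no gene was called higher in more. The first 4 were called in the CRISPRi pair and both knockouts, and LGALS3BP in the CRISPRi pair, LV-miR454 and the miR-454 knockout. IFI6 was at 48.7 CPM in the promoter-guide library and at 4.61 to 8.06 CPM in the 4 control libraries of the study. The 6 treated lentiviral libraries ran from 3.80 to 8.5 CPM and the knockouts were at 14.0 CPM (miR-301a) and 15.6 CPM (miR-454). LGALS3BP was more variable between controls, at 64.7 to 164 CPM. Such levels across tables rest on different gene lists and separate scaling, so they are set side by side without a fold.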

How the data were processed

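Polyadenylated RNA of A549 was sequenced in 13 libraries, 1 per group. The authors deposited 3 tables of unnormalized expected counts, which RSEM estimates for each gene. The submitters' processing notes name RSEM 1.3.3, Bowtie2 2.3.5.1 and GRCh38.p13, while no source used here gives the annotation release or the strand setting. The estimates were rounded to integers. In the table of the microRNA and CRISPRd libraries, 4840 rows are numbered copies of a symbol (2.02% of counts, among them IFI27, IRF7 and IRF9) and were summed per symbol. In the CRISPRi table, 181 rows without a gene name (0.394% of counts) were left out.

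Each table was scaled on its own by TMM in edgeR 4.0.16 under R 4.3.3, and CPM ratios were formed within a table only. A gene was measured at 1 CPM in either library of a pair, and it was called at a log2 ratio of (CPM + 0.5) of at least 1 in size with an exact (Clopper-Pearson) 95% counting interval that excludes equality. At these depths 3 counts are 0.136 to 0.165 CPM. With 1 library per group no p-value is given, and edgeR served for scaling only. The size rule was tested on simulated data.

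Every member called in the 9 pairs is named with its values, by role, and some of the others by ranges or values near the rule. PLSCR1, TRIM21 and IFI35 were measured in all 9 pairs and called in none. The members and gene lists were chosen with earlier results of these data known, and so give no independent support. Alternatives were total counts or DESeq2 1.42.0 size factors in place of TMM, other CPM minimums, another pseudocount, folds of 1.5 and 3, numbered copies left out and LV-vector-34 as the control of the knockouts. Gene positions came from GENCODE 29 on GRCh38 and upstream sequences from RefSeq (GRCh38.p14), where 42 of 52 members matched. Some genes of the lists are not reported here. Families of related genes such as IFIT, IFITM and GBP can share reads, so their members are less certain. Python 3.11.15 with numpy 2.4.6, pandas 2.3.3, scipy 1.17.1 and matplotlib 3.10.9 was used.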

Additional observations from a re-analysis of the deposited data

How the results depend on the processing

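No paired analysis was possible because each group is 1 library. For the same reason no library could be left out, and the counts describe these libraries. Of 47 called values, 47 kept their call with DESeq2 size factors, 45 with total counts, 36 at 5 CPM and 22 at 3-fold. With numbered copies left out 23 of 25 kept it, and with LV-vector-34 as control 19 of 23. All 47 kept it with no CPM minimum, at 1.5-fold and with a pseudocount of 0.1 CPM, but these settings cannot remove a call. In the miR-454 knockout, PARP9 and IFI44L lost their call with total counts and IFI27 with numbered copies left out. IRF7 there reversed to -0.71 with numbered copies left out. In all 52 alternatives, the median over measured genes stayed within an interval of the main median taken across the genes. That interval treats genes as replicates and does not cover counting error, so staying within it is a weak check. Of the counts of called genes, 114 stayed within 1.5 times their value while 26 did not.

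In the CRISPRi pair, 32 genes were higher and 2 lower at 1.5-fold, and 12 were higher at 3-fold. In the miR-454 knockout, 28 were higher and 1 lower at 1.5-fold, 8 higher at 3-fold and 11 higher at 5 CPM, and 1 was lower with total counts or with a pseudocount of 0.1 CPM. In the miR-301a knockout, 9 were higher and 2 lower at 1.5-fold, 1 higher and 0 lower at 3-fold, 2 lower with numbered copies left out and 0 lower with LV-vector-34 as control. In LV-miR454, 6 were higher and 4 lower at 1.5-fold, 0 lower at 3-fold, 2 lower with no CPM minimum and 2 higher with a pseudocount of 0.1 CPM. In LV-P+S, 0 were lower at 5 CPM and at 3-fold. In LV-PRR11, 1 was lower at 1.5-fold. In LV-miR301a, 1 was higher at 1.5-fold and 1 lower with numbered copies left out, and in LV-3+4 1 was lower with numbered copies left out. The cause of these changes was not tested.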

Other observations

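TMEM140, an interferon-inducible membrane protein outside the 52 genes, was at 2.14 CPM in LV-PRR11, 1.39 CPM in LV-SKA2 and 2.74 CPM in LV-P+S, against 0.637 CPM in LV-vector-PS, and was called higher in LV-PRR11 and LV-P+S. In the microRNA set it was at 1.44 CPM in LV-miR301a, 0.951 CPM in LV-miR454 and 2.19 CPM in LV-3+4, against 4.45 CPM in LV-vector-34, and was called lower in LV-miR301a and LV-miR454. In each set all 3 treated libraries lay on one side of the vector library they share.

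TNFSF10, the death ligand TRAIL, was at 3.72 CPM in the miR-301a knockout and 1.10 CPM in the miR-454 knockout, against 0.507 CPM in CRISPRd_Control. CGAS was at 0.377 CPM in the miR-301a knockout and 3.73 CPM in the miR-454 knockout, against 4.61 CPM in CRISPRd_Control, and was called lower in the miR-301a knockout (fold 0.0818). XAF1, an interferon-induced inhibitor of apoptosis inhibitors, had 0 counts in the promoter-guide library and 1 in the mock library of the CRISPRi set, while the libraries of the lentiviral gene set had 2.51 CPM (LV-PRR11), 2.89 CPM (LV-SKA2) and 2.79 CPM (LV-P+S), against 2.18 CPM (LV-vector-PS). Each value is from 1 library.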
